A study of Mus musculus with 35 samples.

Results

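The somatostatin system was followed in the mouse amygdala through 7 genes chosen by name: the ligand genes Sst (somatostatin) and Cort (cortistatin) and the 5 receptor genes Sstr1 to Sstr5. All 7 were among the 52636 genes in the count tables. RNA-seq had been made from tissue laser-captured at the basolateral nucleus of the amygdala, once from a portion labelled anterior and once from a portion labelled posterior. The animals were females of the inbred strain C57BL/6J and of the hybrid strain B6D2F1N, kept in standard housing or in enriched housing, which gave 1 hour per day on a playground. Cognitive training had begun on day 70 of life and housing treatment on day 77, training lasted 37 to 90 days depending on the mouse, and brains were taken after a judgment bias test that every mouse had completed. No group was untrained, so all levels are those of tested adults. The 35 libraries came from 19 mice: 4 C57BL/6J standard anterior, 2 C57BL/6J enriched anterior, 5 B6D2F1N standard anterior, 5 B6D2F1N enriched anterior, 4 C57BL/6J standard posterior, 4 C57BL/6J enriched posterior, 5 B6D2F1N standard posterior and 6 B6D2F1N enriched posterior. Every mouse had a posterior library and 16 mice had both portions. The smallest group, C57BL/6J enriched anterior, has 2 mice.

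Somatostatin is a cyclic neuropeptide released by a large class of GABAergic interneurons that act mainly on the dendrites of principal cells. In the amygdala such neurons occur in the basolateral and central nuclei and are studied for their part in fear and anxiety. Cortistatin is a related peptide made from its own gene by subsets of GABAergic neurons, and it binds the same receptors. The receptors are coupled to inhibitory G proteins, which lower cyclic AMP, open inwardly rectifying potassium channels and close calcium channels. Sstr2, Sstr3 and Sstr5 form one subfamily by sequence and pharmacology, and Sstr1 and Sstr4 the other. Sstr3 protein sits on the primary cilia of neurons.

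On the genome build GRCm38, Sst lay at chr16:23889573-23890958 on the minus strand and Cort at chr4:149125034-149126763, also on the minus strand. Among the receptors, Sstr1 lay at chr12:58211772-58214444, Sstr2 at chr11:113619342-113626028 and Sstr4 at chr2:148395344-148396767, all on the plus strand, and Sstr3 at chr15:78537008-78544685 and Sstr5 at chr17:25489875-25497288 on the minus strand. All 7 are annotated as protein coding. Sstr2 lies inside Slc39a11, a gene of the opposite strand, and shares 0 exon bases with it. Windows of 72 bases, the read length, were taken every 36 bases along the transcripts of the 7 genes, and 0 of them matched a transcript of another gene with up to 2 mismatches.

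Both promoters below are shown because Sst is the classical gene regulated through the cyclic AMP response element, the palindrome TGACGTCA bound by CREB, and because the same letters stood upstream of Sstr2, the receptor with the highest level. The RefSeq promoter table of build GRCm38.p6 held 6 promoters of 5 of the 7 genes. Searched on both strands in the 250 bases before the start site, TGACGTCA was found 48 bases upstream of the start of Sst and 58 bases upstream of that of Sstr2, and in 1.55% of all 32851 promoter windows of that length. The 30-base windows are at chr16:23890874-23890903 (minus strand) for Sst and at chr11:113619258-113619287 (plus strand) for Sstr2, each written 5′ to 3′ with the element in capitals. In the GENCODE annotation the window of Sst falls inside a longer first exon.
Sst: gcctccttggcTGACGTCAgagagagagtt
Sstr2: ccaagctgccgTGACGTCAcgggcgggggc
The whole 250 bases before the start of Sstr2, at chr11:113619077-113619326, also held 2 GC boxes (GGGCGG or its reverse complement), a motif found in 32.7% of windows. None of the 3 motifs overlapped another. The capitals mark them.
Sstr2 promoter: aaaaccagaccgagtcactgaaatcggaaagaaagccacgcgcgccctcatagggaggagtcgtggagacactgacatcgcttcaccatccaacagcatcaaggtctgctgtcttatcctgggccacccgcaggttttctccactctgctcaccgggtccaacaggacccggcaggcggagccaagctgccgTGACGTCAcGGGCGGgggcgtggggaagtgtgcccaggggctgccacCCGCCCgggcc
The windows of Cort, Sstr3 and Sstr4 held none of these letters and none of the TATA box TATAAA, which occurred in 12.4% of windows. The matches describe the sequence only.

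Library totals ran from 16938534 to 27352623 counts. All mice are labelled female, but Xist, the transcript of the inactive X chromosome, had 0 counts in 2 of 35 libraries, both of B6D2F1N standard mouse 1, and Y-linked genes were at or near 0 in every library. The portion differences of Sst, Sstr2, Sstr3 and Sstr5 in B6D2F1N are therefore given with and without this mouse. Strain, housing and interaction values include it unless a mouse is said to be left out. Tissue markers fixed for the purpose were present in both portions: the 4 GABAergic neuron markers summed to 599 to 1192 CPM (counts scaled to library size with edgeR's TMM factors) in anterior and to 509 to 1050 CPM in posterior libraries. The 6 basolateral excitatory neuron markers summed to a median of 3495 CPM in anterior and 2105 CPM in posterior libraries. The study's methods place the portion that it names posterior at the more rostral of its stated positions. All directions below follow the labels and would turn if the names were exchanged.

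Levels were first compared between genes, per kilobase of exon, to describe the make-up of the system. In anterior tissue, Sst stood at 661.9 ± 157.5 CPM per kb (SD, n = 16), Sstr2 at 109.8 ± 45.2, Sstr1 at 10.5 ± 4.86, Cort at 9.49 ± 4.63, Sstr3 at 4.91 ± 1.33, Sstr4 at 2.28 ± 1.32 and Sstr5 at 0.275 ± 0.592. Sst exceeded Sstr2 and Sstr2 exceeded Sstr1 in 16 of 16 anterior libraries, whereas Sstr1 exceeded Cort in only 9 of 16, so the order of that pair is within the spread. In posterior tissue, Sst stood at 657.8 ± 317.3 CPM per kb (SD, n = 19) and Sstr2 at 24.4 ± 12.2. Sstr1 followed at 11.6 ± 4.21, Cort at 10.6 ± 3.76, Sstr4 at 2.66 ± 1.41, Sstr5 at 2.12 ± 4.06 and Sstr3 at 1.40 ± 1.18. Sst was again above Sstr2 in 19 of 19 libraries, while Sstr5 was above Sstr3 in only 6 of 19, and its median was 0.593 against 1.102 CPM per kb for Sstr3. The median ratio of Sst to Sstr2 per kb was 6.04 in anterior and 25.9 in posterior libraries.

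**Figure D1:**
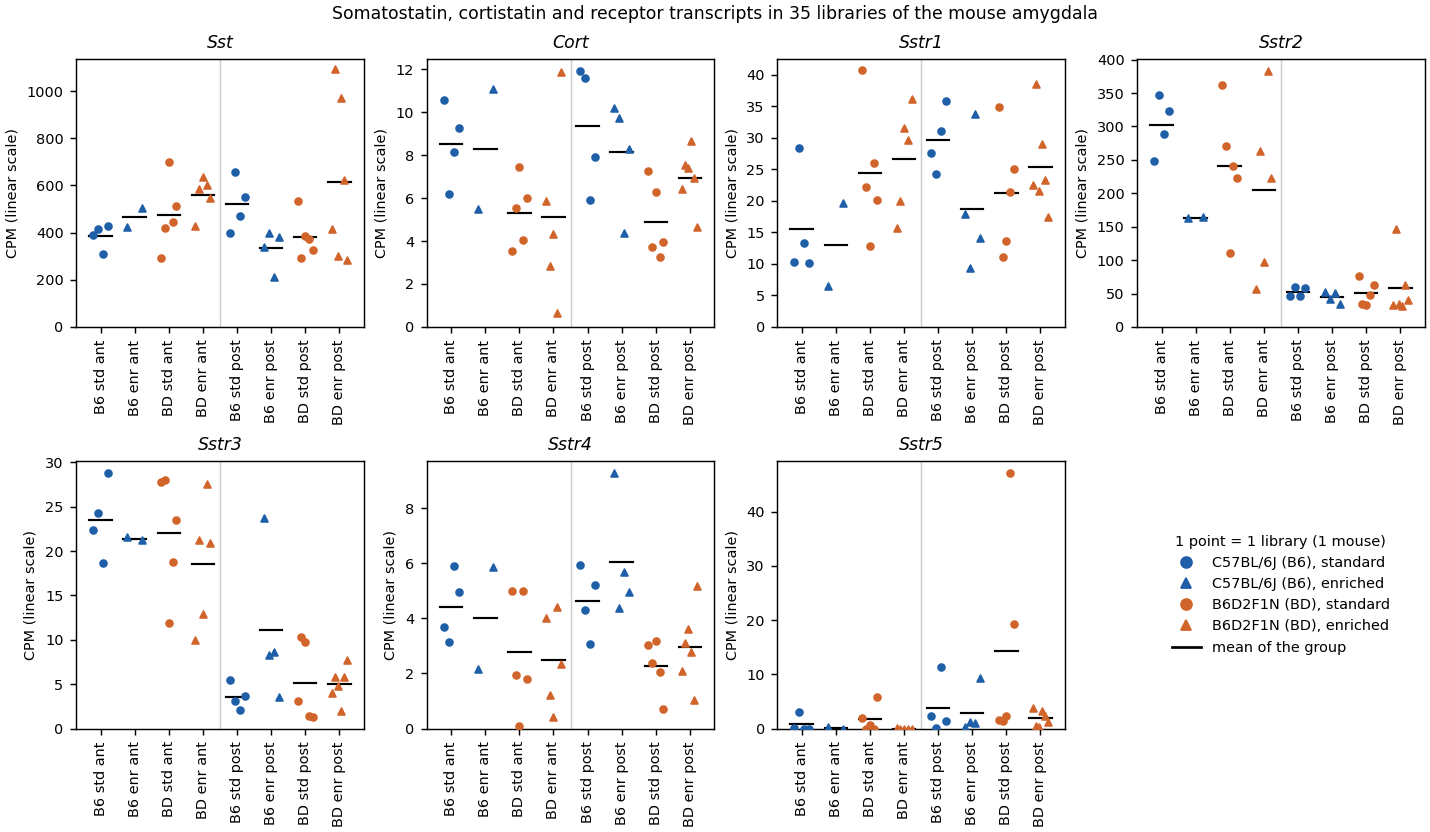
Level of each of the 7 transcripts in the 35 libraries, in CPM on a linear axis starting at 0, by strain (colour), housing (symbol) and portion (left and right of the grey line), with the mean of each group as a bar. Sstr2 and Sstr3 are high on the anterior side, Sst and Cort overlap between the sides, and the highest Sstr5 points are 2 B6D2F1N standard posterior libraries (19.4 and 47.0 CPM).

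The paired comparison of the portions asked how the system is distributed along the amygdala, and 4 receptors passed the test in at least 1 strain, while neither ligand did. Sstr2 and Sstr3 were 4.05 to 4.71 times lower in posterior than in anterior tissue in both strains, Sstr1 was higher in the posterior portion of C57BL/6J, and Sstr5 was higher in the posterior portion of B6D2F1N. For no member did the portion difference pass a test of difference between the strains. With the mouse as a block and edgeR's quasi-likelihood test, 3 of 7 members passed an adjusted p of at most 0.05 in C57BL/6J, beside 3.64% of the 25751 genes tested (1 higher, beside 1.54%, and 2 lower, beside 2.1%). In B6D2F1N 3 of 7 members passed, beside 4.0% of 27761 genes (1 higher, beside 1.62%, and 2 lower, beside 2.37%). The median log2 fold change over all genes was 0.01 in C57BL/6J and 0.15 in B6D2F1N, and over the members 0.03 and -0.12. In tissue libraries, fewer cells of a type and less RNA per cell cannot be told apart.

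Among the ligands, Sst in C57BL/6J ranged from 308 to 504 CPM with a median of 419 CPM in the 6 anterior libraries and from 213 to 658 CPM with a median of 434 CPM in the 6 paired posterior libraries. It was higher in the posterior portion of the 4 standard mice, with log2 differences of 0.03 to 0.67. It was lower in that of the 2 enriched mice (-0.32 and -1.24). Over both housings the log2 fold change of Sst was 0.03 ± 0.21 (SE, 95% interval -0.41 to 0.47, adjusted p = 0.987). In B6D2F1N, Sst ranged from 294 to 698 CPM with a median of 531 CPM in the 10 anterior libraries and from 285 to 1092 CPM with a median of 379 CPM in the paired posterior libraries. It was lower in the posterior portion of 7 mice and higher in 3, with a log2 fold change of -0.19 ± 0.20 (SE, 95% interval -0.61 to 0.23, adjusted p = 0.71). The 3 mice with more Sst in the posterior portion were standard mouse 1, the animal without Xist counts, and enriched mice 2 and 4. Without standard mouse 1 the log2 fold change was -0.30 (adjusted p = 0.529).

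Cort, with medians of 8.70 CPM (anterior) and 9.04 CPM (posterior) in the paired libraries of C57BL/6J, was higher in the posterior portion of 3 of 6 mice. Its log2 fold change was -0.00 ± 0.34 (SE, adjusted p = 0.999). In B6D2F1N the medians were 4.93 and 6.36 CPM and the log2 fold change 0.31 ± 0.43 (SE, adjusted p = 0.787). The largest difference within a mouse, 3.59 on the log2 scale, was that of B6D2F1N enriched mouse 4, whose anterior library had 0.632 CPM, the lowest Cort level of all. The Cort groups overlapped in both strains.

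Sstr2, the receptor gene with the highest level in both portions, ranged in C57BL/6J from 163 to 347 CPM with a median of 269 CPM in the anterior libraries and from 45.7 to 59.1 CPM with a median of 51.8 CPM in the paired posterior libraries. The lowest anterior value was above the highest posterior value, and all 6 mice had less in the posterior portion. The fold change was 4.71-fold lower, a log2 fold change of -2.24 ± 0.18 (SE, 95% interval -2.61 to -1.86, adjusted p = 8.38e-07). In B6D2F1N, Sstr2 ranged from 56.2 to 383 CPM with a median of 232 CPM in anterior and from 32.1 to 146.9 CPM with a median of 37.9 CPM in paired posterior libraries. The groups overlapped, yet Sstr2 was lower in the posterior portion of 10 of 10 mice, with differences of -3.575 to -0.79 on the log2 scale. The log2 fold change was -2.02 ± 0.23 (SE, 95% interval -2.51 to -1.53, adjusted p = 5.67e-05), and -1.98 (adjusted p = 0.00029) without standard mouse 1.

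Sstr3, the ciliary receptor, ranged in C57BL/6J from 18.6 to 28.8 CPM with a median of 22.0 CPM in anterior and from 2.14 to 23.8 CPM with a median of 4.58 CPM in paired posterior libraries. Enriched mouse 1 was the only C57BL/6J mouse with no decrease, with 21.6 CPM (anterior) and 23.8 CPM (posterior). Its posterior library also held the highest sum of basolateral excitatory neuron markers of all posterior libraries, 5406 CPM, and the lowest sum of choroid plexus markers, 117 CPM. Sstr2 in this mouse was 163 CPM (anterior) and 52.3 CPM (posterior). The part of tissue make-up in its Sstr3 level was not tested. The log2 fold change of Sstr3 in C57BL/6J was -2.06 ± 0.38 (SE, 95% interval -2.87 to -1.25, adjusted p = 0.00351). In B6D2F1N, Sstr3 ranged from 10.0 to 28.0 CPM with a median of 21.1 CPM in anterior and from 1.27 to 10.3 CPM with a median of 4.40 CPM in paired posterior libraries. It was lower in the posterior portion of 10 of 10 mice, and the groups overlapped only at their edges. The log2 fold change was -2.22 ± 0.38 (SE, 95% interval -3.02 to -1.44, adjusted p = 0.00182), and -2.10 (adjusted p = 0.00699) without standard mouse 1. Without the mouse block, the fall of Sstr3 in C57BL/6J was 1.56 on the log2 scale and missed the threshold (adjusted p = 0.0692).

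Sstr1, of the other receptor subfamily, ranged in C57BL/6J from 6.44 to 28.4 CPM with a median of 11.8 CPM in anterior and from 17.8 to 35.9 CPM with a median of 29.3 CPM in paired posterior libraries. It was higher in the posterior portion of 5 of 6 mice, the exception being standard mouse 2. The C57BL/6J posterior libraries without an anterior partner, enriched mice 2 and 4, held 9.42 and 14.0 CPM. Both lay below every paired posterior value and within the anterior range, and the paired test did not use them. The paired log2 fold change of Sstr1 was 1.09 ± 0.25 (SE, 95% interval 0.55 to 1.62, adjusted p = 0.0193). This call was lost without the mouse block (log2 fold change 0.95, adjusted p = 0.116) and without any of 4 mice, namely standard mouse 1 (adjusted p = 0.0765), standard mouse 3 (0.0632), standard mouse 4 (0.114) and enriched mouse 1 (0.057). In B6D2F1N, Sstr1 ranged from 12.9 to 40.8 CPM in anterior and from 11.1 to 38.4 CPM in posterior libraries and was higher in the posterior portion of 4 of 10 mice, with a log2 fold change of -0.12 ± 0.20 (SE, 95% interval -0.54 to 0.29, adjusted p = 0.825). Tested as an interaction, the strains differed in this fold change by -1.22 ± 0.34 on the log2 scale (SE, 95% interval -1.91 to -0.53, unadjusted p = 0.00118). It did not pass the adjustment over 29437 genes (adjusted p = 1.0), of which 0.0% were called by edgeR while 871 had an unadjusted p under 0.05 and DESeq2 called 0.

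Sstr4 did not pass in either strain. In C57BL/6J it ranged from 2.18 to 5.89 CPM in anterior and from 3.08 to 9.27 CPM in paired posterior libraries, with a log2 fold change of 0.37 ± 0.43 (SE, adjusted p = 0.819). In B6D2F1N it ranged from 0.105 to 5.00 CPM in anterior and from 0.703 to 5.16 CPM in paired posterior libraries, with the same size of fold change, 0.37 ± 0.63 (SE, adjusted p = 0.836). Its groups overlapped in both strains.

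Sstr5 was the receptor nearest the limit of detection in anterior tissue, with 0 counts in 9 of 16 anterior libraries and in 0 of 19 posterior libraries. A count of 0 allows up to 3 counts, at most 0.172 CPM in these anterior libraries. In B6D2F1N, Sstr5 ranged from 0 to 5.86 CPM with a median of 0 CPM in anterior libraries and from 0.381 to 47.0 CPM with a median of 1.99 CPM in paired posterior libraries. It was higher in the posterior portion of 9 of 10 mice, standard mouse 1 being the exception. A log2 fold change of 4.52 ± 1.00 was fitted (SE, 95% interval 2.41 to 6.62, adjusted p = 0.0126). The size depended on single mice: it was 5.37 without standard mouse 1, 5.25 without standard mouse 3 and 5.39 without standard mouse 5, whose anterior libraries held 0.680 to 5.86 CPM, and 4.12 without standard mouse 4, whose posterior library held 47.0 CPM. The call was kept without each of the 10 mice and lost without the mouse block (log2 fold change 3.25, adjusted p = 0.0908). In C57BL/6J, the anterior libraries held 0 to 3.14 CPM and the paired posterior libraries 0.162 to 11.3 CPM. There Sstr5 was higher in the posterior portion of 4 of 6 mice and did not pass (log2 fold change 3.71 ± 1.70, SE, adjusted p = 0.345). With a mouse left out, this log2 value ranged from 2.68 (without standard mouse 3) to 5.05 (without standard mouse 2), with adjusted p from 0.0647 to 0.687. Tested as an interaction, the Sstr5 fold changes of the strains differed 2.11-fold, which did not pass.

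**Figure D2:**
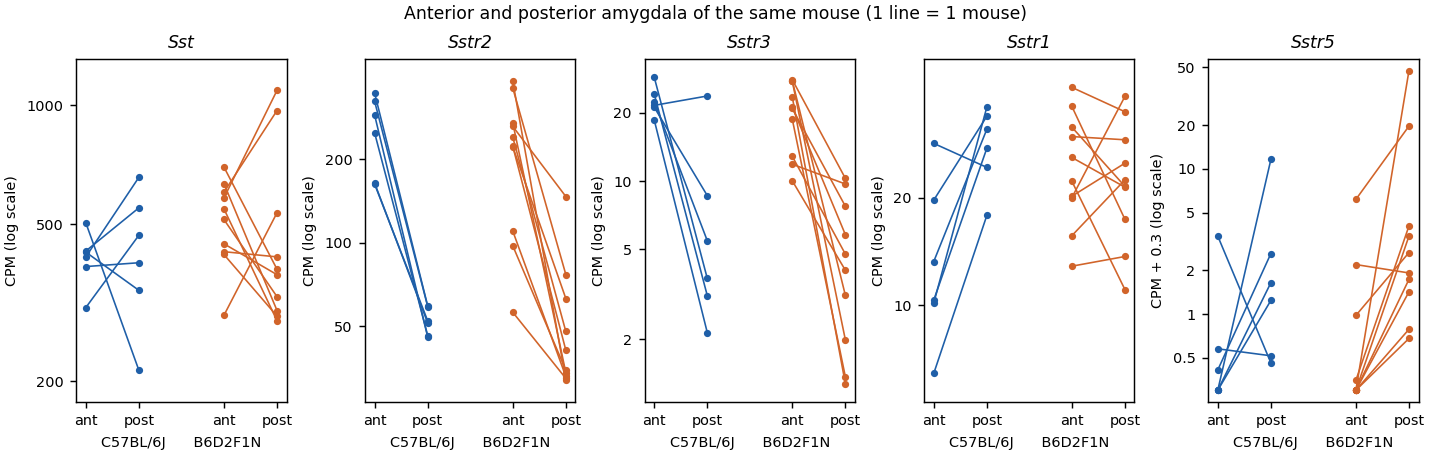
Levels of Sst and 4 receptor transcripts in the anterior and posterior portion of the same mouse, in CPM on log axes (for Sstr5, CPM + 0.3), with 1 line per mouse and the strains side by side. Every line of Sstr2 falls, as do 15 of 16 lines of Sstr3, whereas lines of Sst cross.

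The make-up of the receptor transcripts, as each receptor's share of their summed CPM per kb, shifted with the portion. In C57BL/6J, Sstr2 made up 87.9% ± 3.87 of the receptor level in anterior (SD, n = 6) and 55.4% ± 6.11 in posterior libraries (SD, n = 8). In B6D2F1N the share of Sstr2 was 82.2% ± 7.30 in anterior (SD, n = 10) and 57.5% ± 9.39 in posterior libraries (SD, n = 11). Sstr1 took 5.42% ± 2.79 and 27.9% ± 7.86 in the anterior and posterior libraries of C57BL/6J and 11.7% ± 5.78 and 27.9% ± 7.48 in those of B6D2F1N. The summed receptor level was 135 ± 39.2 CPM per kb in anterior and 41.2 ± 7.47 in posterior C57BL/6J libraries, and 123 ± 55.2 and 42.9 ± 19.1 in those of B6D2F1N. Sstr5 reached its highest share, 33.2%, in the posterior library of B6D2F1N standard mouse 4. Shares describe the levels given above and were not tested.

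**Figure D3:**
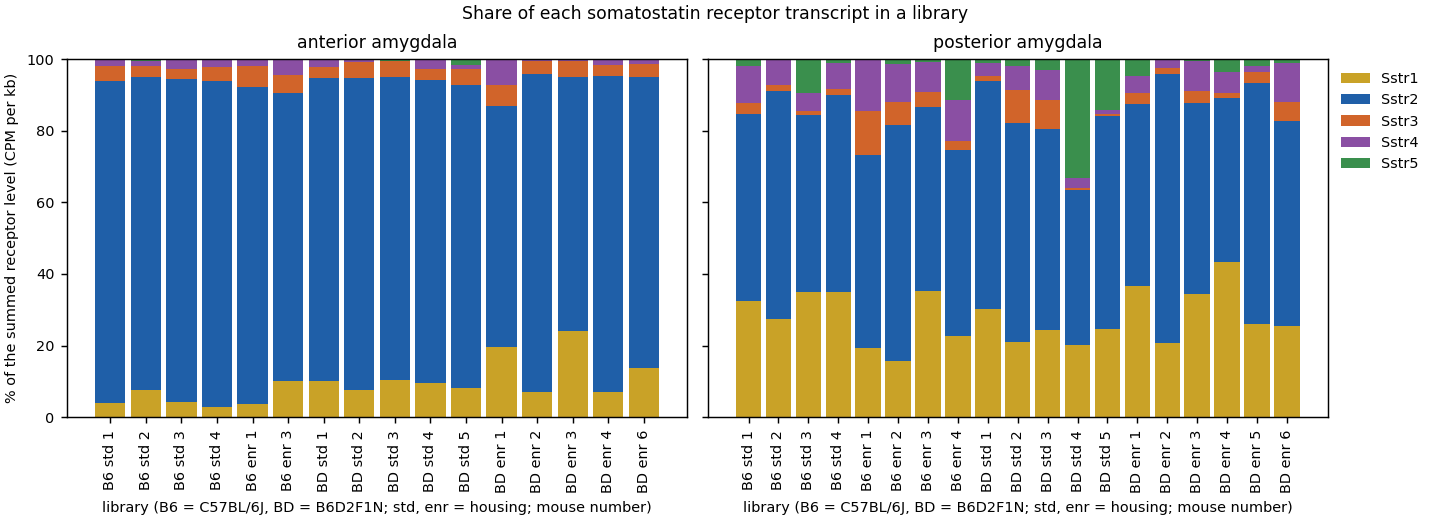
Share of each of the 5 receptor transcripts in the summed receptor level (CPM per kb of exon), in % from 0 to 100, with 1 stacked bar per library. Sstr2 fills 67.2% to 90.9% of the bars in anterior libraries and 43.2% to 75.3% in posterior libraries.

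Markers of other cell types moved with the portion too. Of all genes, 1.54% were called higher and 2.1% lower in posterior C57BL/6J tissue, and 1.62% and 2.37% in B6D2F1N. The 5 choroid plexus markers summed to 5.78 to 927 CPM with a median of 11.5 CPM in anterior and to 117 to 14200 CPM with a median of 1439 CPM in posterior libraries, and 3 of 5 passed as higher in the posterior portion of C57BL/6J and 5 of 5 in B6D2F1N. In anterior libraries Folr1 was at 0 counts in 10 of 16 and Kcne2 in 8 of 16. Of the 4 ependymal cell markers, 2 were higher in the posterior portion of C57BL/6J and 3 in that of B6D2F1N, and of the 4 meningeal fibroblast markers 1 in each strain. Of the 5 astrocyte markers, 3 were higher in the posterior portion of C57BL/6J (Gfap, Gja1 and Slc1a3) and 1 in that of B6D2F1N (Gfap). The 8 markers of striatal, central or intercalated amygdala neurons summed to a median of 433 CPM in anterior and 976 CPM in posterior libraries, and of these Drd1 alone passed, as lower in posterior C57BL/6J tissue (log2 fold change -1.28 ± 0.34, SE, adjusted p = 0.0426). Of the 6 basolateral excitatory neuron markers, 3 were lower in the posterior portion in each strain, namely Slc17a7, Neurod6 and Rspo2. The 4 GABAergic neuron markers had median log2 fold changes of -0.32 in C57BL/6J and -0.08 in B6D2F1N. The part of these cell types in the receptor differences was not tested. The posterior libraries with the highest Sstr5 levels, B6D2F1N standard mice 4 and 5, had choroid plexus marker sums of 4507 and 2971 CPM, and the libraries with the highest sums, 14200 and 13800 CPM (B6D2F1N enriched mice 3 and 1), held 0.381 and 3.75 CPM of Sstr5. The sums of the striatal, central or intercalated neuron markers in the 4 posterior libraries with the most Sstr5 were 3240 CPM (47.0 CPM of Sstr5), 2442 CPM (19.4), 2556 CPM (11.3, C57BL/6J standard mouse 3) and 1875 CPM (9.36, C57BL/6J enriched mouse 4), all above the posterior median. B6D2F1N enriched mouse 4, with 2936 CPM of these markers, held 3.15 CPM of Sstr5. The anterior library with the most Sstr5, 5.86 CPM (B6D2F1N standard mouse 5), had a sum of 365.5 CPM, below the anterior median. The next, with 3.14 CPM of Sstr5 (C57BL/6J standard mouse 2), had 995 CPM, above it. A relation of Sstr5 to these markers was not tested.

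**Figure D4:**
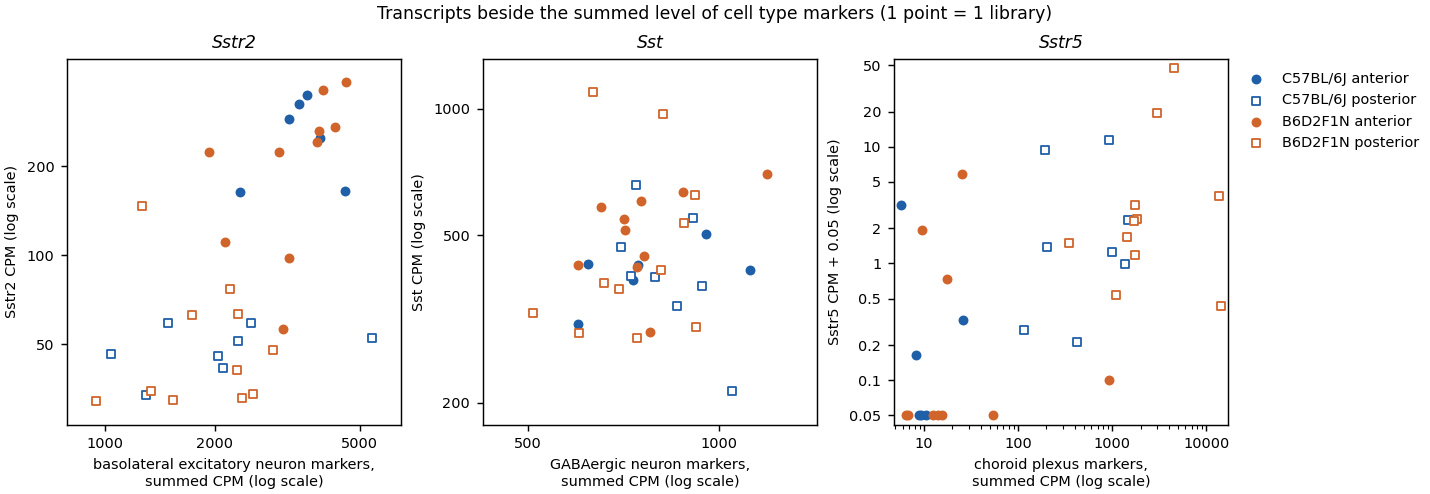
Sstr2, Sst and Sstr5 (CPM, vertical log axes, with 0.05 added for Sstr5) beside the summed CPM of basolateral excitatory neuron, GABAergic neuron and choroid plexus markers (horizontal log axes), with 1 point per library, coloured by strain and filled for anterior. Anterior libraries lie mostly higher and further right for Sstr2 and mostly lower and further left for Sstr5, with points of the other portion among them in each panel, and the portions overlap on both axes for Sst.

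Of the 11 listed genes that cut, pack and release neuropeptides, 0 rose and 5 fell in C57BL/6J, beside 1.54% and 2.1% of all genes. Their median log2 fold change was -0.74, beside 0.01 over all genes. The 5 that fell were Pcsk2 and Pcsk1, the convertases that cut peptide precursors, and the granins Chgb, Chga and Scg2. Chgb fell most, by 1.99 ± 0.23 on the log2 scale (SE, adjusted p = 4.32e-05), from 3157 ± 995 to 851 ± 456 CPM (SD, n = 6), and Pcsk2 fell by 1.42 ± 0.16 (adjusted p = 3.43e-05). In B6D2F1N again 0 of 11 rose and 5 fell, beside 1.62% and 2.37% of all genes. The median was -0.59, beside 0.15 over all genes. Chgb, Pcsk2, Pcsk1, Chga and Vgf passed there, Chgb with a fall of 1.98 ± 0.21 (SE, adjusted p = 4.06e-05). The C57BL/6J count was 3 without the mouse block.

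Of the 21 receptor signalling genes, 1 rose and 1 fell in each strain, beside 1.54% and 2.1% of all genes in C57BL/6J and 1.62% and 2.37% in B6D2F1N. Adcy1, a calcium-stimulated adenylyl cyclase, fell by 1.41 ± 0.25 in C57BL/6J (SE, adjusted p = 0.0024) and by 1.42 ± 0.27 in B6D2F1N (SE, adjusted p = 0.00467). Ghsr, the ghrelin receptor, rose in C57BL/6J from a mean of 0.119 to 2.63 CPM (log2 fold change 5.46 ± 1.15, SE, adjusted p = 0.0091). Its anterior libraries there had a median of 0 CPM and at most 0.602 CPM, so the size of this fold is uncertain. Adcy8, another calcium-stimulated cyclase, rose in B6D2F1N (log2 fold change 1.12 ± 0.23, SE, adjusted p = 0.00723). The other listed genes, among them those of G proteins, potassium channels and calcium channels, did not pass. The count of 2 in C57BL/6J was 1 without standard mouse 4 or under edgeR's own expression filter and 4 without enriched mouse 1.

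Of the 16 genes that mark somatostatin interneurons in forebrain, 2 rose and 3 fell in C57BL/6J, and 0 rose and 3 fell in B6D2F1N, beside 3.64% and 4.0% of all genes called in either direction. Satb1, a chromatin organizer needed for the maturation of these neurons, fell by 2.37 ± 0.20 in C57BL/6J (SE, adjusted p = 1.44e-06) and by 2.06 ± 0.32 in B6D2F1N (SE, adjusted p = 0.000848). Npy, the neuropeptide that many of them also make, fell by 1.67 ± 0.17 in C57BL/6J (SE, adjusted p = 1.29e-05), from 214 ± 72.4 to 65.6 ± 16.2 CPM (SD, n = 6), and by 1.33 ± 0.24 in B6D2F1N (adjusted p = 0.00328). Reln, a secreted matrix protein, fell in C57BL/6J and Crhbp, a binding protein for corticotropin-releasing hormone, fell in B6D2F1N. Tacr1, the substance P receptor, and Calb1, a calcium-binding protein, rose in C57BL/6J by 1.95 ± 0.33 and 1.45 ± 0.33 on the log2 scale (SE). The listed genes that rose and those that fell also occur in other neurons, and Sst itself passed in neither strain. The C57BL/6J count of 5 was 3 without standard mouse 4, without the mouse block or under edgeR's own expression filter, and 8 with no minimum count. The B6D2F1N count of 3 was 6 by DESeq2 and 6 with no minimum count.

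Of the 10 genes of other interneuron classes, 2 rose and 5 fell in C57BL/6J, beside 1.54% and 2.1% of all genes. Htr3a, the ionotropic serotonin receptor, and Calb2, calretinin, rose by 1.53 ± 0.20 and 2.00 ± 0.35 (SE), and Cnr1, Vip, Ndnf and Pvalb were among those that fell, by 0.90 to 1.42 on the log2 scale. The count of 7 was 4 without the mouse block. In B6D2F1N, 2 rose (Tac1 and Calb2) and 4 fell (Ndnf, Cnr1, Cck and Vip), beside 1.62% and 2.37% of all genes. That count of 6 was 2 without standard mouse 1, enriched mouse 1 or enriched mouse 4, and 3 without standard mouse 2, standard mouse 4 or enriched mouse 3 or under edgeR's own expression filter. The lists were chosen with earlier results known, and their counts describe them only.

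Whether the portion difference depended on housing was tested over the 16 mice with both portions. None of the 7 members passed (edgeR called 0.0% of 29437 genes, 888 had an unadjusted p under 0.05, and DESeq2 called 1 gene, no member). By edgeR's test, Sstr3 was the only member with an unadjusted p under 0.05 (difference 1.23 ± 0.52 on the log2 scale, SE, adjusted p = 1.0). The interval for Sst was -0.94 to 0.35.

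The strain comparisons asked whether levels differed between the genetic backgrounds within a housing and portion. No member passed in any of the 4 comparisons by edgeR or by DESeq2. In standard housing 0 of 7 members passed in the anterior portion, beside 0.37% of 24305 genes (0.325% higher and 0.0453% lower in B6D2F1N), and 0 of 7 in the posterior portion, beside 0.373% of 25171 genes (0.318% and 0.0556%). In enriched housing 0 of 6 members tested passed in the anterior portion, beside 0.0639% of 23459 genes (0.0597% and 0.00426%), since Sstr5 had too few counts there, and 0 of 7 in the posterior portion, beside 0.394% of 25640 genes (0.339% and 0.0546%). At an unadjusted p under 0.05, these were 0, 1, 0 and 3 members in the same order.

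Cort was lower in the mean of B6D2F1N than of C57BL/6J in each of these 4 pairs of groups. In standard posterior tissue its levels were 5.92 to 11.9 CPM in 4 C57BL/6J libraries and 3.25 to 7.27 CPM in 5 B6D2F1N libraries, which overlapped (log2 fold change -0.92 ± 0.37, SE, unadjusted p = 0.027, adjusted p = 0.467). Sstr4 had the same direction. In enriched posterior tissue it measured 4.37 to 9.27 CPM in 4 C57BL/6J libraries and 1.03 to 5.16 CPM in 6 B6D2F1N libraries (log2 fold change -1.03 ± 0.46, SE, adjusted p = 0.534), and in standard posterior tissue 3.08 to 5.95 CPM and 0.703 to 3.19 CPM (log2 fold change -1.01 ± 0.50, SE, adjusted p = 0.5). Sstr2 differed by -0.33 ± 0.25 in standard anterior and by -0.03 ± 0.25 in standard posterior tissue on the log2 scale (SE), with 95% intervals of -0.86 to 0.21 and -0.58 to 0.51. In enriched housing the difference of Sstr2 had the other sign, 0.35 ± 0.56 in anterior and 0.40 ± 0.39 in posterior tissue (SE), and neither passed. Sstr3 in enriched posterior tissue differed by -1.13 ± 0.47 (SE, unadjusted p = 0.0301, adjusted p = 0.507 by edgeR). Scg5, the chaperone of Pcsk2 and a gene of the processing list, was higher in B6D2F1N in standard anterior tissue (log2 fold change 0.80 ± 0.16, SE, adjusted p = 0.0439), the only gene of the 4 pathway lists called for strain or housing.

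For Sst the strain difference in enriched posterior tissue was 0.89 ± 0.38 on the log2 scale (SE, 95% interval 0.09 to 1.70, unadjusted p = 0.0311, adjusted p = 0.508). The 4 C57BL/6J enriched posterior libraries held 340, 399, 213 and 380 CPM of Sst. The 6 B6D2F1N enriched posterior libraries held 414, 1092, 303, 971, 623 and 285 CPM. Mice 2 and 4 of that group had the highest Sst levels of all libraries, and the 2 lowest B6D2F1N values lay within the C57BL/6J range. The GABAergic marker sums of these mice, 634 and 816 CPM, were within the range of the other posterior libraries. Their sums of striatal, central or intercalated neuron markers were 1129 and 2936 CPM, beside a posterior median of 976 CPM. B6D2F1N standard mouse 4, with the highest posterior sum of these markers, 3240 CPM, held 373 CPM of Sst. The part of these cells in the Sst levels was not tested.

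The housing comparisons asked whether enriched housing changed the levels within a strain. No member passed in any of the 4 comparisons by edgeR. In C57BL/6J 0 of 7 passed in the anterior portion, beside 0.0% of 22865 genes (1418 with an unadjusted p under 0.05, 100 called by DESeq2), and 0 of 7 in the posterior portion, beside 0.0163% of 24526 genes (2515 and 319 by the same measures). In B6D2F1N 0 of 7 passed in either portion, beside 0.0% of 24639 genes (anterior, with 1553 and 8 by these measures) and 0.0% of 26028 (posterior, with 1716 and 13). At an unadjusted p under 0.05, edgeR gave 1, 2, 1 and 1 members in the same order.

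Sstr2 had the lowest unadjusted p of these. In C57BL/6J anterior tissue the 4 standard libraries held 249, 347, 289 and 324 CPM and the 2 enriched libraries 163 and 164 CPM, which did not overlap. The log2 fold change was -0.91 ± 0.23 (SE, 95% interval -1.40 to -0.41, unadjusted p = 0.00165, adjusted p = 0.544), and DESeq2 alone called it (log2 fold change -0.91, adjusted p = 0.0136). In B6D2F1N anterior tissue the standard libraries held 362, 271, 110.4, 241 and 222 CPM and the enriched libraries 56.2, 263, 97.7, 383 and 223 CPM, which overlapped (log2 fold change -0.25 ± 0.41, SE, adjusted p = 1.0). An interaction test of this effect between strains gave 0.65 ± 0.62 on the log2 scale (SE, unadjusted p = 0.308).

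For Sst the fitted housing differences in posterior tissue had opposite signs in the strains, and neither passed. The C57BL/6J standard posterior libraries held 399.7, 658, 469 and 551 CPM and the enriched libraries 340, 398.8, 213 and 380 CPM, so that every standard library was above every enriched one (log2 fold change -0.64 ± 0.25, SE, unadjusted p = 0.0212, adjusted p = 0.453). The 6 oligodendrocyte markers separated the same libraries, with sums of 8009 to 12540 CPM in standard and 17820 to 27910 CPM in enriched libraries, and Mbp, a myelin protein gene, passed as higher in enriched housing (log2 fold change 1.97 ± 0.27, SE, adjusted p = 0.0366). The part of these cells in the Sst difference was not tested. The B6D2F1N standard posterior libraries held 535, 293, 385, 373 and 328 CPM, which lay within the range of the enriched libraries (log2 fold change 0.67 ± 0.34, SE, unadjusted p = 0.0667, adjusted p = 0.784). The difference of these effects was 1.33 ± 0.47 on the log2 scale (SE, 95% interval 0.36 to 2.30, unadjusted p = 0.00917), and it did not pass the adjustment over 27871 genes (adjusted p = 0.491), of which edgeR called 0.0% and DESeq2 15. In the anterior portion the same difference for Sst was -0.04 ± 0.34 (SE, adjusted p = 1.0), beside 0.0% of 26353 genes called.

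Sstr3 in C57BL/6J posterior tissue measured 5.45, 3.12, 2.14 and 3.72 CPM in standard and 23.8, 8.25, 8.63 and 3.60 CPM in enriched libraries, with a log2 fold change of 1.62 ± 0.53 (SE, unadjusted p = 0.0081, adjusted p = 0.371). It was 0.91 without enriched mouse 1 (adjusted p = 0.642) and 2.16 with only mice that had both portions (adjusted p = 0.299). In B6D2F1N its fold change was -0.06 ± 0.56 (SE, adjusted p = 0.999). Sstr5 in B6D2F1N anterior tissue had 0 counts in 2 of 5 standard and 4 of 5 enriched libraries. The remaining enriched library had 1 count, within what a count of 0 allows, so that no fold is given. In B6D2F1N posterior tissue Sstr5 measured 1.62, 1.44, 2.35, 47.0 and 19.4 CPM in standard and 0.381 to 3.75 CPM in enriched libraries, which overlapped (log2 fold change -2.92 ± 0.87, SE, unadjusted p = 0.00422, adjusted p = 0.752). With a mouse left out this value ran from -3.25 to -1.74, the latter without standard mouse 4.

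**Figure D5:**
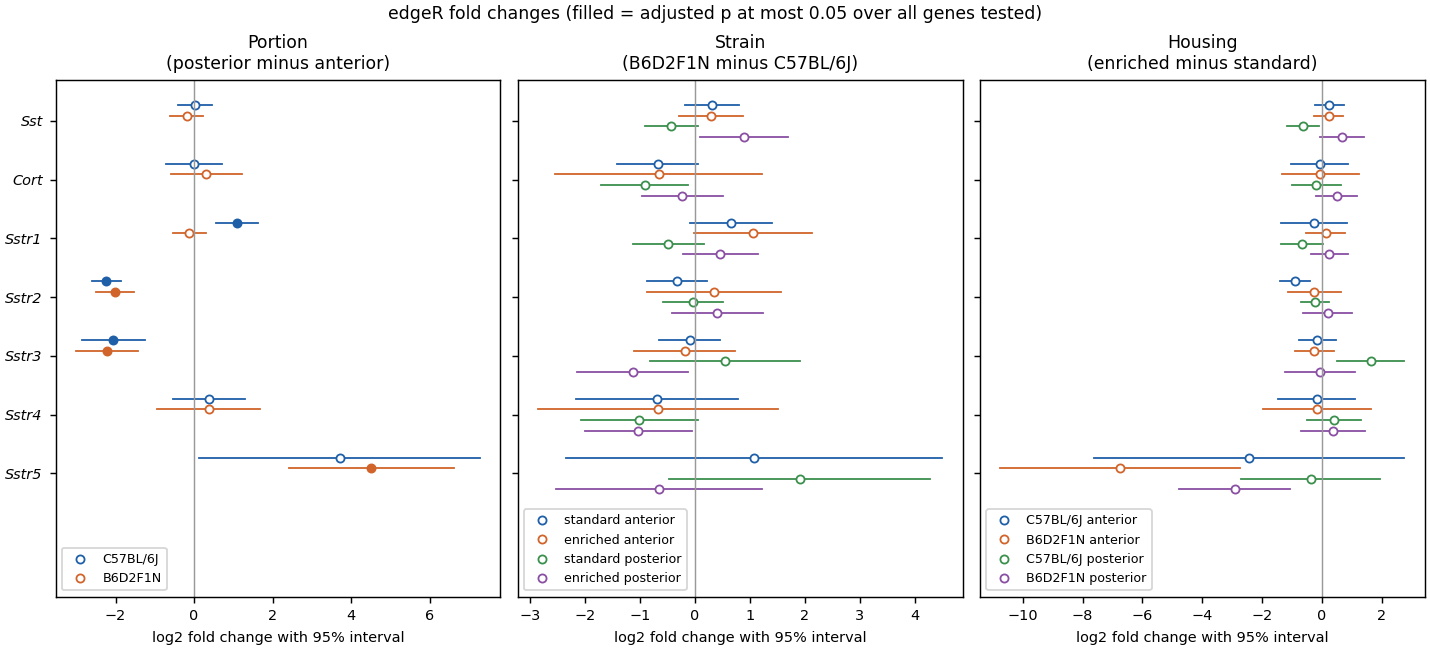
Log2 fold changes of the 7 transcripts with 95% intervals from edgeR, for portion (posterior minus anterior), strain (B6D2F1N minus C57BL/6J) and housing (enriched minus standard), with filled points where the adjusted p was at most 0.05. The 6 filled points are all in the portion panel: Sstr2 and Sstr3 in both strains, Sstr1 in C57BL/6J and Sstr5 in B6D2F1N. The point of Sstr5 for housing in B6D2F1N anterior tissue is fitted against libraries with at most 1 count and is no measure of size.

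Across mice, 12 relations of Sst, counted over both portions together, were computed with permutation tests within groups. Each used the libraries of 1 portion and deviations of log2 CPM from the strain and housing means. None passed a Benjamini-Hochberg adjusted p of 0.05. In the 19 posterior libraries, Sst and Cort gave Pearson's r = 0.54 (permutation p = 0.00464, adjusted p = 0.0557) and Spearman's rho = 0.55 (permutation p = 0.00835, adjusted p = 0.1), and r = 0.51 without the 2 mice farthest from the median of Sst. In the 16 anterior libraries the same pair gave r = 0.07 and rho = 0.24 (permutation p = 0.764 and 0.407). Sst and the mean of Gad1, Gad2 and Slc32a1, which make and load GABA, gave r = 0.72 in anterior libraries (permutation p = 0.0196, adjusted p = 0.117), rho = 0.52 (permutation p = 0.059) and r = 0.43 without 2 mice. In posterior libraries that pair gave r = 0.17 and rho = 0.25 (permutation p = 0.536 and 0.338). Sst and Sstr4 gave r = -0.69 in anterior libraries (permutation p = 0.0312, adjusted p = 0.125), rho = -0.51 (permutation p = 0.089) and r = -0.35 without 2 mice.

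The genes whose levels varied most like each member were found by Pearson's r of the deviations of log2 CPM from the 8 group means, among 16022 genes with a mean of at least 1 CPM over the 35 libraries. This is a description, since libraries share portions of the same mouse and differ in tissue make-up. Sst was followed most closely by Tshz1 (r = 0.70), a transcription factor of intercalated amygdala cells, Pld4 (0.69), Txndc12 (0.69, a thiol oxidoreductase of the endoplasmic reticulum), Tmem91 (0.67) and Scg2 (0.65), the granin of the processing list. Sstr2 was followed by Atp6v0c (r = 0.90), a subunit of the vesicular proton pump, and by Olfm1, Cdipt, St6galnac5 and Ccdc127 (0.85 to 0.86). Cort was closest to Dlx2 (r = 0.75), a transcription factor of forebrain GABAergic cells. Of the remaining receptors, Sstr1 was closest to Slc35f5 (r = 0.86), Sstr3 to Uba1 (0.83), Sstr4 to Akr1c14 (0.73) and Sstr5 to Gm48485 (0.70).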

How the data were processed

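Per the labels and the study's methods, the authors sequenced polyA RNA of laser-captured amygdala tissue as single reads of 72 bases, removed adapters (Trimmomatic 0.38), mapped to GRCm38 (HISAT2 2.1.0) and counted per Ensembl gene (HTSeq 0.11.2). The annotation release and strand setting are not given in the sources used here. The deposited values are raw read counts, with 1 library per mouse and portion.

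Symbols, positions and exon lengths came from GENCODE M21 (52489 of 52636 IDs matched). Genes with at least 10 counts over the libraries of a comparison were tested with edgeR 4.0.16 (R 4.3.3): TMM scaling, quasi-likelihood test, Benjamini-Hochberg adjustment over all genes tested, threshold 0.05. SE is the log2 fold change divided by the root of F. Each comparison used only its own groups, and portion comparisons carried a mouse block. CPM used TMM factors over all libraries. Log2 CPM carried a prior count of 2. The naming rule was the 7 members, and list genes past the threshold, at most 6 per list. Member values of a strain or housing comparison that are not printed are in the plot of fold changes.

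The pairing comes from the mouse codes in the labels. As a check, r between the 2 libraries of a mouse, each centred on its group, had a median of 0.05 (-0.11 to 0.22, 16 mice, 16022 genes). The members and lists were chosen with earlier results of these data known. Alternatives were DESeq2 1.42.0, its size factors, other minimum counts, no block, 1 fit per portion, only mice with both portions, library totals, a prior count of 0.5 and each mouse left out. The fits were tested on simulated data. Intervals and limits cover counting error or the spread between mice only.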

Additional observations from a re-analysis of the deposited data

Results flagged for a closer look

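In 5 of 49 groups of 4 to 6 libraries tested, 1 library lay far from the others for a member, by Dixon's criterion, which flags about 1 group in 20 by chance. Sstr1 was 28.4 CPM in the anterior library of C57BL/6J standard mouse 2, against 10.1 to 13.2 CPM in the other 3. The same library held 3.14 CPM of Sstr5, against 0 to 0.113 CPM in the others. Sstr5 was 9.36 CPM in the posterior library of C57BL/6J enriched mouse 4, where the next value was 1.21 CPM, and 0.0507 CPM, a single count, in the anterior library of B6D2F1N enriched mouse 1, where the others had 0. Sstr2 was 146.9 CPM in the posterior library of B6D2F1N enriched mouse 2, which also had the highest Sst level, against 32.1 to 62.9 CPM in the others. None of the 7 members passed a test of the difference between strains or housings (edgeR, interaction terms).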

How the results depend on the processing

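Of 1545 values of members under other settings, 1535 kept their direction and their side of the threshold. A value smaller than its own SE was not counted as having a direction. Most of these values belong to tests that had not passed, so the count says little about the calls. With a mouse left out, Sstr1 in C57BL/6J kept its call in 2 of 6 fits. Sstr2 and Sstr3 in both strains and Sstr5 in B6D2F1N kept theirs in every such fit. Without the replicate block, that is without pairing the portions by mouse, 1 member (Sstr2) passed in C57BL/6J in place of 3, and 2 (Sstr2 and Sstr3) in B6D2F1N in place of 3, and it changed no other call of a member. DESeq2 called 1 member (Sstr2) for housing in C57BL/6J anterior tissue in place of 0. With a mouse left out, 2 to 3 members passed for portion in C57BL/6J and 3 in B6D2F1N, and 0 in the strain and housing comparisons. Without B6D2F1N enriched mouse 2 the strain difference of Sstr2 in enriched posterior tissue turned from 0.40 to -0.12 (up to 0.53 without other mice), and without C57BL/6J enriched mouse 1, which left 1 library in its group, the anterior strain by housing term of Sstr5 turned from -4.26 to 0.29 (down to -8.51 without others). The Sstr5 term is fitted against a group with at most 1 count per library and has no measured size. Neither had passed, and the cause was not tested.

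Over all genes, DESeq2 called 1535 genes for portion in C57BL/6J against 937 by edgeR and 1994 against 1110 in B6D2F1N. For strain it called 254 against 90, 392 against 94, 137 against 15 and 342 against 101 (standard anterior, standard posterior, enriched anterior, enriched posterior), and for housing in C57BL/6J posterior tissue 319 against 4. For strain by housing it called 3 (anterior) and 15 (posterior) against 0. With no minimum count, edgeR called 57 for strain in enriched anterior tissue, 274 for housing in C57BL/6J anterior tissue and 112 in the posterior. A fit of the 4 groups of a portion called 44 for strain in enriched anterior tissue and 0 for housing in C57BL/6J posterior tissue. With only mice with both portions, strain in enriched posterior tissue gave 35 and housing in C57BL/6J posterior tissue 0. Depth limits Sstr5 in anterior tissue, where 11 of 16 libraries had at most 3 counts.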

Other observations

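Across the 35 libraries, after removal of the 8 group means, Sstr1 and Sstr2 had Pearson's r = 0.53 in log2 CPM, Sstr3 and Sstr4 r = 0.40, and Sstr3 and Sstr5 r = -0.48. Sstr2 and Sstr3 correlated at r = 0.75 over all libraries and at r = 0.27 once the group means, and with them the portions, were removed. These values are descriptions without a test, since 16 mice gave 2 libraries each.

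The ratio of Sst to Cort in CPM had a median of 45.8 in anterior and 47.3 in posterior libraries of C57BL/6J (n = 6 and 8), and of 89.8 and 79.1 in those of B6D2F1N (n = 10 and 11). Its highest value, 953, belonged to the anterior library of B6D2F1N enriched mouse 4, whose Cort level was the lowest of all. The strain difference in this ratio was not tested.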
